A study of Mus musculus with 24 samples.

Results

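Polycomb repressive complex 2 (PRC2) was followed through 8 of its genes in dermal papilla (DP) cells of the mouse hair follicle, from controls and from mice in which the genes of the histone deacetylases Hdac1 and Hdac2 were deleted by Cre. The 8 genes were taken by name from the deposited expression values, and all 8 were found among the 25755 genes listed. They were the catalytic subunits Ezh1 and Ezh2, the core subunits Suz12 and Eed, the accessory subunit Jarid2, and the Polycomb-like subunits Mtf2, Phf19 and Phf1. RNA came from sorted DP cells of mouse back skin at telogen of the first cycle (P20), early anagen (P24) and mid-anagen (P28) of the second cycle, and telogen of the second cycle (P60), with 3 control and 3 mutant libraries at each age, 24 in all. The mutant, dM1/2, was Cor-cre/+; Hdac1 Flox/Flox; Hdac2 Flox/Flox. Every control mouse carried the same Cre, driven by the promoter of the DP gene Corin, and at least one of its deacetylase genes had a floxed copy. The methods allow controls that were homozygous for the floxed allele of either gene, and the labels do not say which genotype each control library had. Cells of each mouse were labelled by a YFP reporter that Cre switched on and were sorted through 2 rounds. Per the methods, P20 mice were females, anagen mice were males and P60 mice were of both sexes, so that stage, sex and sequencing depth cannot be told apart between anagen and telogen.

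PRC2 methylates lysine 27 of histone H3, a mark of repressed developmental genes. Ezh2 is the more active methyltransferase and is typical of dividing cells, whereas Ezh1 is typical of resting cells, and neither works without Suz12 and Eed. Accessory subunits sort the core complex into alternative forms. Of these, Polycomb-like proteins bind CpG-rich DNA and methylated histone H3 tails, while Jarid2 and Aebp2 define a separate form.

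The 24 libraries held between 8171944 reads at P60 and 49331751 reads at P24 on genes, so that P20 and P60 values carry the larger counting error. Of 14 DP markers, Corin (48900 to 4532 normalized reads) and Fgf7 (11100 to 2190) had the largest called falls in dM1/2 at P28. Prom1 (97.66 to 604.8) and Sox2 (292.3 to 773.0) rose at that age (means, n = 3 each). Keratinocyte markers summed to between 103.6 and 804.9 normalized reads over 10 genes in the 24 libraries. Sums over 5 genes each ranged from 231.9 to 1289 for endothelial, from 59.14 to 718.5 for immune and from 626.9 to 7739 for muscle and pericyte markers. Dermal sheath and other fibroblast markers, also 5 genes, were higher and more variable, at 3146 to 65710. They summed to 18060, 42240 and 3146 in P28 controls, and at P20 the controls (43990 to 65710) did not overlap dM1/2 (28770 to 36680). Of the fibroblast list, Dlk1 rose at P28 (log2 fold change 3.48, SE 0.86, adjusted p = 0.0199). This call was lost without any single P28 dM1/2 library (adjusted p 0.0508 to 0.0807). The part of other cell types in the PRC2 values was not tested. Hdac1 fell at P24 from 670.5 ± 3.69 to 170.9 ± 48.7 normalized reads (SD, n = 3; adjusted p = 0.00167). The fall of Hdac1 was called at P24 only. At P20 it did not pass the test, although its values did not overlap (log2 fold change -0.72, SE 0.215, adjusted p = 0.122). At P60 it did not pass either, with overlapping values (-0.25, SE 0.189, adjusted p = 0.986). At P28 Hdac1 did not pass the test, and its values overlapped because P28 control 3 held 104.7, below the lowest dM1/2 library at 125.7. P28 results of the called members, of Suz12 and of the further PRC2 gene Epop are therefore also given without P28 control 3. Hdac2 did not pass the test at any age, and whether the counted reads included exons outside the floxed part is not given in the sources used here, so that neither gene's total is a full check of the deletion.

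The 8 genes lie on 7 chromosomes in the GRCm38 build. Ezh1 (ENSMUSG00000006920) is on chromosome 11 from 101191115 to 101226463 and Ezh2 (ENSMUSG00000029687) on chromosome 6 from 47530139 to 47595341, both on the minus strand. Suz12 (ENSMUSG00000017548) is on chromosome 11 from 79993106 to 80034123 on the plus strand, and Eed (ENSMUSG00000030619) on chromosome 7 from 89954654 to 89980983 on the minus strand. Jarid2 (ENSMUSG00000038518) is on chromosome 13 from 44729474 to 44921643 and Mtf2 (ENSMUSG00000029267) on chromosome 5 from 108065674 to 108109004, both on the plus strand. Phf19 (ENSMUSG00000026873) is on chromosome 2 from 34893757 to 34914026 on the minus strand, and Phf1 (ENSMUSG00000024193) on chromosome 17 from 26933052 to 26937908 on the plus strand. Each of them except Ezh1 overlaps a gene on the other strand, among them the protein-coding neighbours Tmed5 for Mtf2 and Cuta for Phf1. The strand setting of the counting is not given in the sources used here, so that shared reads of these pairs cannot be told apart.

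The promoters of the 5 members called at P24 or P28 are shown, of which Ezh1 fell and the others rose. Each RefSeq window (GRCm38.p6) runs from 250 bases before to 50 bases after the annotated start, 5′ to 3′ on the strand of the gene. The windows are chr6:47594981-47595280 on the minus strand for Ezh2, chr2:34913927-34914226 on the minus strand for Phf19, chr11:79992856-79993155 on the plus strand for Suz12, chr7:89980927-89981226 on the minus strand for Eed and chr11:101226414-101226713 on the minus strand for Ezh1. Capitals mark matches to an E2F consensus, searched on both strands as TTTCCCGC, TTTCGCGC, TTTGCCGC or TTTGGCGC, and to the CCAAT box, searched on both strands as CCAAT. No 2 of the marked matches overlap.
Ezh2: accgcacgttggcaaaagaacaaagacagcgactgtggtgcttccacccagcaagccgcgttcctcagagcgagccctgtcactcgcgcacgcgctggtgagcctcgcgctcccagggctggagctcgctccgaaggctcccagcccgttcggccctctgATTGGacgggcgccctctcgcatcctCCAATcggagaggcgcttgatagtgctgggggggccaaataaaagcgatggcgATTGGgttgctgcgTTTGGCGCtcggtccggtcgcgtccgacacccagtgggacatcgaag
Phf19: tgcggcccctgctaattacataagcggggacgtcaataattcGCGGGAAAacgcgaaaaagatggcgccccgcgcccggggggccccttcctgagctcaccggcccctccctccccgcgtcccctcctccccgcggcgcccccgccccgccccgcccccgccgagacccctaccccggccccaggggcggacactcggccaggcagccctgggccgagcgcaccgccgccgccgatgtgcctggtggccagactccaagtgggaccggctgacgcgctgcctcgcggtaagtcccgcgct
Suz12: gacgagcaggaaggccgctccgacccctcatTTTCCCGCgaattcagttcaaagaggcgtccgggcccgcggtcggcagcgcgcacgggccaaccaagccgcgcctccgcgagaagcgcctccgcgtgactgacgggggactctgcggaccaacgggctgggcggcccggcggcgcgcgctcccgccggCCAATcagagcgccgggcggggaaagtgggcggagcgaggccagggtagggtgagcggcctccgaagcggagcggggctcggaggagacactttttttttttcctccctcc
Eed: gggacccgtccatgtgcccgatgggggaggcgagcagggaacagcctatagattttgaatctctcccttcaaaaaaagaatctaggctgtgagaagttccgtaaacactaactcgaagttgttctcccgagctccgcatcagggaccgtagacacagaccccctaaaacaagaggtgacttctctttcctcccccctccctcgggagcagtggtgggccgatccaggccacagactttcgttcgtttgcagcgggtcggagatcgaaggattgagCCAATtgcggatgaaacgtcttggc
Ezh1: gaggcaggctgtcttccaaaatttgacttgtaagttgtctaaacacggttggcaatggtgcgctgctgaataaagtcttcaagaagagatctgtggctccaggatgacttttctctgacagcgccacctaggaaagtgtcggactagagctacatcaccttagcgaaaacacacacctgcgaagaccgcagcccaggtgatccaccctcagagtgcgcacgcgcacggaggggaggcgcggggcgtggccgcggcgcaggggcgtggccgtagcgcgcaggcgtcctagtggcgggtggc

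The E2F consensus was present in the windows of 3 of the 8 genes, against 2.6% of all 27025 genes with a window of this length. It lay in Ezh2 (TTTGGCGC, first base 4 bases past the start), in Suz12 (TTTCCCGC, 219 bases before it) and in Phf19 (TTTCCCGC on the other strand, 208 bases before it). The windows of Ezh1, Eed, Jarid2, Mtf2 and Phf1 held no such match. The CCAAT box, present in 37.4% of all 32851 windows, had 3 matches in Ezh2, 1 each in Suz12 and Eed, and none in Phf19 or Ezh1. Among the members not called, it had 1 match in each of the 2 windows of Jarid2 and 3 in 1 of the 2 windows of Mtf2. The window of Phf1 held none. Both motifs were chosen after these promoters had been seen, and a match describes letters only, not a bound site.

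At mid-anagen the catalytic subunits moved in opposite directions. Normalized reads of Ezh2 at P28 were 251.4, 266.4 and 205.2 in the controls and 631.1, 503.1 and 526.7 in dM1/2. Every dM1/2 library thus lay above every control library. Ezh2 rose from a mean of 241.0 ± 31.9 to 553.6 ± 68.1 (SD, n = 3), a log2 fold change of 1.20 (SE 0.161, adjusted p = 0.00203). Ezh1 at P28 was 989.6, 891.5 and 903.7 in the controls and 447.3, 497.5 and 423.5 in dM1/2, again without overlap. Its mean fell from 928.3 ± 53.4 to 456.1 ± 37.8 (SD, n = 3), a log2 fold change of -1.03 (SE 0.119, adjusted p = 0.00122). In bulk RNA, fewer cells of a type and less RNA per cell cannot be told apart.

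At early anagen Ezh1 fell as well, whereas Ezh2 did not pass the test. Ezh1 at P24 was 763.3, 705.9 and 545.8 in the controls and 473.2, 446.0 and 416.0 in dM1/2, which did not overlap. Its log2 fold change was -0.58 (SE 0.154, adjusted p = 0.0290), and the adjusted p exceeded 0.05, at 0.0646 to 0.104, without any of 5 of the 6 libraries in turn. Ezh2 at P24 was 388.4, 394.1 and 766.9 in the controls and 769.4, 708.7 and 737.9 in dM1/2. The third control lay among the mutants, and the log2 fold change of 0.59 had an SE of 0.257 and an adjusted p of 0.131. Without this library, P24 control 3, it was 0.91 (adjusted p = 0.00234). The same library had the highest sum of proliferation markers among the controls of all ages, 8519 normalized reads over 12 genes against 3864 and 4848 in the other P24 controls. The part of that difference in the Ezh2 value was not tested.

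**Figure D1:**
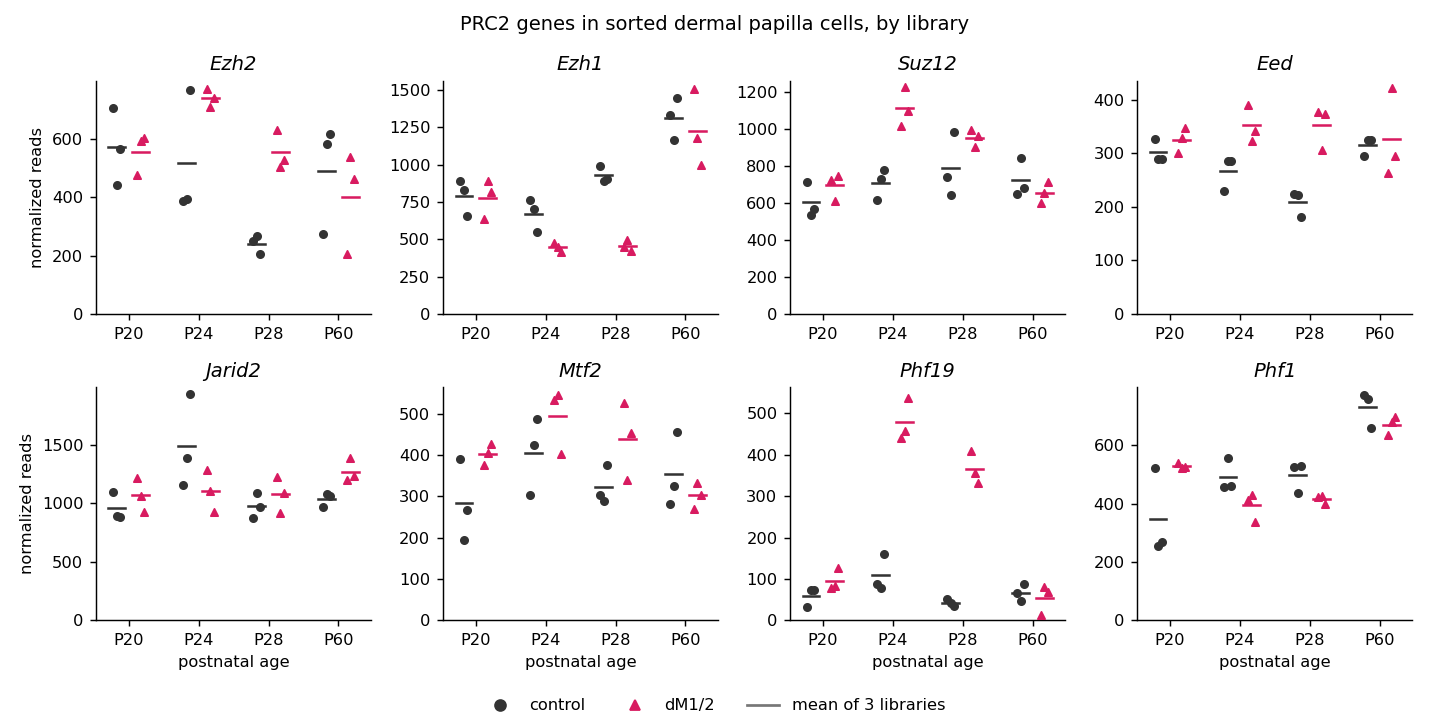
Normalized reads (linear axes from 0) of the 8 PRC2 genes in each library by postnatal age, with controls as circles, dM1/2 as triangles and bars at the mean of 3 libraries. At P28 Ezh2, Eed and Phf19 of dM1/2 lie above all controls and Ezh1 lies below them, while at P20 and P60 the genotypes mostly overlap.

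In telogen the catalytic subunits did not pass the test. Ezh1 averaged 792.1 ± 124 and 779.3 ± 129 normalized reads in control and dM1/2 at P20 and 1312 ± 142 and 1227 ± 256 at P60 (SD, n = 3). Ezh2 averaged 570.1 ± 132 and 555.7 ± 69.9 at P20 and 490.8 ± 190 and 402.1 ± 175 at P60. At P60 the first library of each genotype was low in Ezh2, at 272.9 in the control and 204.5 in dM1/2, whereas the other libraries held 463.6 to 617.9. The log2 fold change of Ezh2 at P60 was -0.31 (SE 0.431, adjusted p = 0.986) and changed sign to 0.11 without P60 dM1/2 1. That library also had the highest sum of 6 melanocyte markers, 2764 normalized reads against 1155 to 1441 in the other P60 libraries, and its part in the value was not tested.

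The balance of the catalytic pair within a library does not depend on how libraries are scaled. Per exon length, Ezh2 made up 20.2% to 25.0% of Ezh1 and Ezh2 together in P28 controls and 53.0% to 61.1% in P28 dM1/2, with means of 22.4% ± 2.42 and 57.4% ± 4.1 (SD, n = 3). At P24 the shares were 36.2%, 38.3% and 61.0% in the controls and 64.4%, 63.9% and 66.4% in dM1/2. At P20 the means were 44.3% and 44.4%, and at P60 the shares were 18.6% to 35.8% in the controls and 13.2% to 34.1% in dM1/2. The log2 ratio of Ezh2 to Ezh1 was higher in dM1/2 by 1.70 over the 12 anagen libraries (exact two-sided permutation test within ages, p = 0.005, the smallest this design can give). The difference was 1.17 at P24 and 2.22 at P28, each with p = 0.1 in an exact permutation test, which is the smallest p for 3 against 3. Over the 12 telogen libraries it was -0.10 (exact permutation test, p = 0.715), and it turned positive without P60 dM1/2 1 (0.19) or P60 control 2 (0.03).

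**Figure D2:**
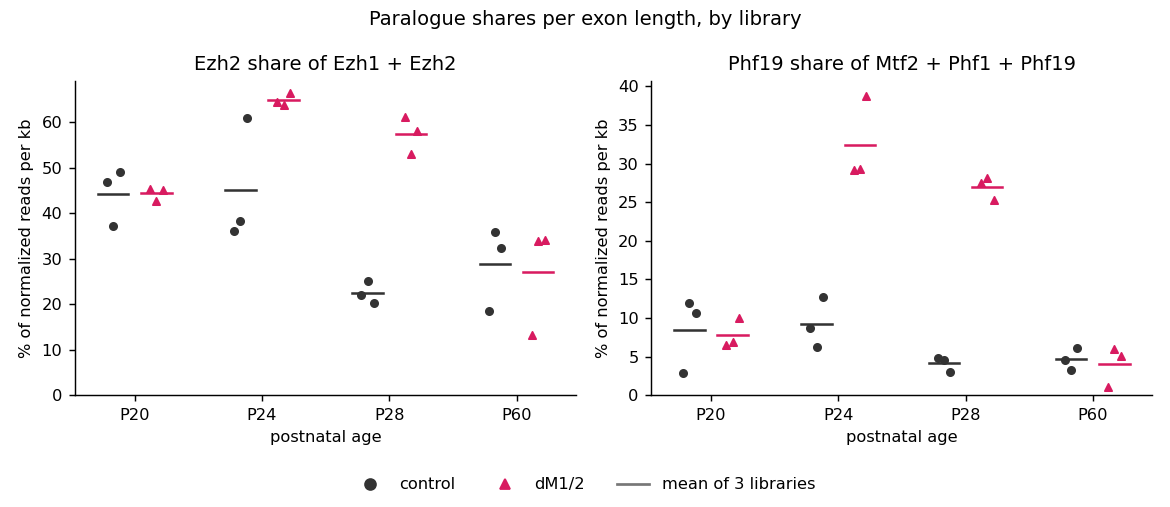
Share of Ezh2 in Ezh1 + Ezh2 (left) and of Phf19 in Mtf2 + Phf1 + Phf19 (right), in % of normalized reads per kb of exon, for each library by age, with controls as circles, dM1/2 as triangles and bars at the mean of 3. Ezh2 takes 53.0% to 61.1% in P28 dM1/2 and at most 25.0% in P28 controls, and Phf19 takes at least 25.3% in anagen dM1/2 and at most 12.7% in every other library.

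Of the core subunits, Suz12 changed at P24 and Eed at P28. Suz12, which holds the complex together, was 614.4, 727.5 and 779.6 normalized reads in P24 controls and 1016, 1224 and 1099 in P24 dM1/2. These groups did not overlap, and Suz12 rose by 0.66 on the log2 scale (SE 0.135, adjusted p = 0.0120). At P28 it was 737.3, 641.1 and 984.5 in the controls and 994.9, 903.3 and 959.5 in dM1/2. Here the third control lay among the mutants, and the log2 fold change of 0.30 (SE 0.172, adjusted p = 0.226) did not pass the test, while without P28 control 3 it was 0.47 (adjusted p = 0.0273).

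Eed binds the methyl mark that the complex lays down and stimulates its enzyme. It was 224.0, 222.2 and 180.1 normalized reads in P28 controls and 377.0, 305.5 and 373.0 in P28 dM1/2, with no overlap. Eed rose by 0.75 (log2, SE 0.163, adjusted p = 0.0123), and its adjusted p was 0.0561 without P28 dM1/2 3. At P24 it was 228.7 to 286.2 in the controls and 322.2 to 390.7 in dM1/2, which did not overlap either, although the log2 fold change of 0.40 (SE 0.153, adjusted p = 0.0924) did not pass the test. The genotype effect at P28 minus that at P24 did not pass the test for either gene (Suz12 -0.36, SE 0.221, adjusted p = 0.587; Eed 0.35, SE 0.215, adjusted p = 0.587). In telogen Suz12 and Eed overlapped between genotypes at both ages.

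Phf19, a Polycomb-like subunit that reads methylated lysine 36 of histone H3, showed the largest fold of the 8 genes at P24 and at P28. At P28 it was 51.76, 42.27 and 34.51 normalized reads in the controls and 409.4, 356.5 and 331.6 in dM1/2. The lowest mutant library thus held several times the reads of the highest control. The log2 fold change was 3.08 (SE 0.210, adjusted p = 0.000293), an 8.44-fold increase that ranked 371st from the top among the 14126 genes tested. At P24 it was 88.60, 78.82 and 159.6 in the controls and 441.6, 456.6 and 536.4 in dM1/2. The groups did not overlap, and Phf19 rose by 2.19 (log2, SE 0.267, adjusted p = 0.00210).

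In telogen Phf19 did not pass the test. At P20 it was 32.14, 73.04 and 74.57 normalized reads in the controls and 77.31, 81.89 and 125.8 in dM1/2, and the log2 fold change was 0.72 (SE 0.369, adjusted p = 0.312) although the groups did not overlap. At P60 it was 65.07, 47.67 and 87.61 in the controls and 12.62, 80.46 and 68.25 in dM1/2, with a log2 fold change of -0.63 (SE 0.668, adjusted p = 0.986). The lowest value came from 5 reads in P60 dM1/2 1, and without that library the log2 fold change was 0.19.

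The other Polycomb-like genes, the chromatin readers Mtf2 and Phf1, did not pass the test at any age. Mtf2 overlapped between genotypes in anagen, with means of 404.1 ± 93.2 and 493.8 ± 78.8 normalized reads at P24 and 321.9 ± 47.3 and 439.1 ± 94.8 at P28 (SD, n = 3). Its log2 fold changes were 0.30 (SE 0.209, adjusted p = 0.324) and 0.43 (SE 0.202, adjusted p = 0.142). Phf1 was lower in every anagen dM1/2 library than in any control of its age, at 414.3, 429.2 and 338.5 against 458.5, 556.8 and 460.1 at P24 and at 424.3, 425.5 and 400.3 against 525.0, 437.4 and 529.4 at P28. Neither of its log2 fold changes, -0.32 (SE 0.149, adjusted p = 0.153) and -0.25 (SE 0.129, adjusted p = 0.178), passed the test. Per exon length, Phf19 made up 29.2%, 29.3% and 38.8% of the Polycomb-like reads in P24 dM1/2 and 25.3% to 28.1% in P28 dM1/2, against 6.26% to 12.7% and 3.05% to 4.80% in the controls of these ages. The share of Phf1 was 35.4% to 48.4% in anagen dM1/2 and 53.0% to 70.4% in anagen controls, whereas that of Mtf2 overlapped.

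Jarid2, a DNA-binding subunit that recruits the complex, did not pass the test at any age. It was 1160, 1387 and 1938 normalized reads in P24 controls and 1283, 1109 and 925.9 in P24 dM1/2, a log2 fold change of -0.41 (SE 0.209, adjusted p = 0.185) with overlapping groups. At P28 the means were 975.8 ± 105 and 1077 ± 153 (SD, n = 3), a log2 fold change of 0.14 (SE 0.150, adjusted p = 0.518). At P60 Jarid2 was 969.8, 1082 and 1063 in the controls and 1197, 1385 and 1231 in dM1/2. Those groups did not overlap, with a log2 fold change of 0.29 (SE 0.138, adjusted p = 0.986).

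**Figure D3:**
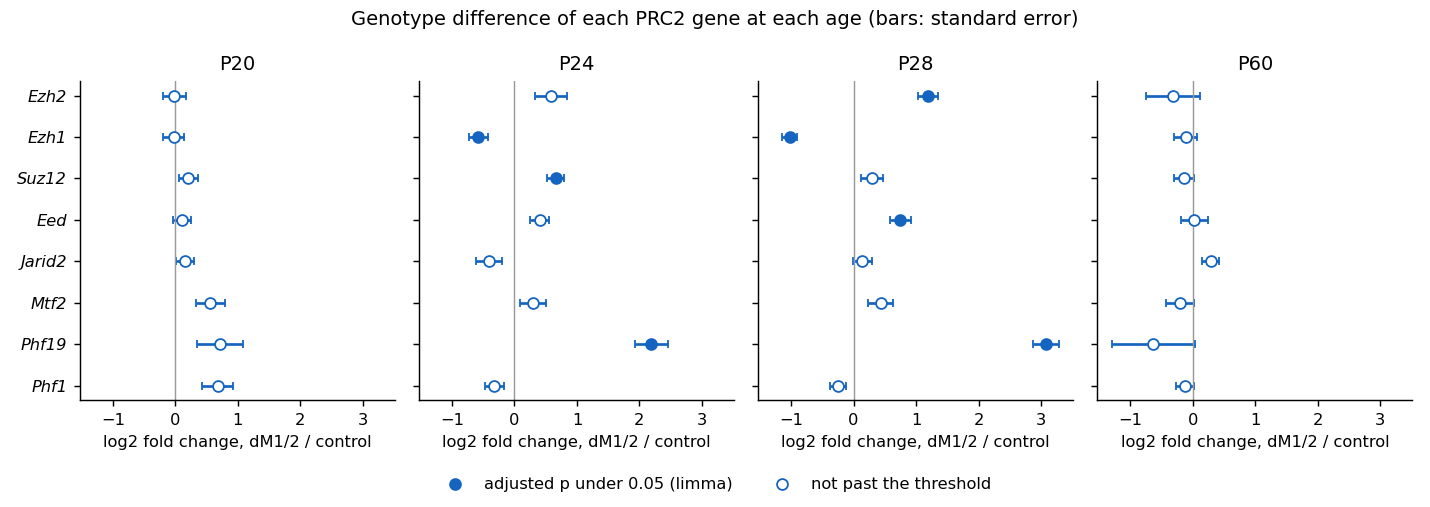
Log2 fold change of dM1/2 against control for the 8 PRC2 genes at each age, with bars for the standard error and filled points where the adjusted p was under 0.05. Filled points appear at P24 (Phf19, Suz12 and Ezh1) and P28 (Phf19, Ezh2, Eed and Ezh1), led by Phf19 at 2.19 and 3.08, and none at P20 or P60.

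Counted over the complex, 3 of the 8 genes changed at P24 (2 rose and 1 fell), where 26.6% of all 14028 genes tested changed (14.8% rose and 11.8% fell). At P28, 4 of 8 changed (3 rose and 1 fell), where 35.5% of 14126 genes did (20.0% rose and 15.6% fell). All 8 passed the filter on low values at every age. Their median log2 fold change was 0.35 at P24 and 0.36 at P28, beside -0.013 and 0.004 over all genes tested. None of the 8 changed at P20, where 0.433% of all genes did (60 of 13845, with 2735 at an unadjusted p under 0.05), or at P60, where 0.0% did in limma (0 of 14042, with 525 at an unadjusted p under 0.05 and 26 called by DESeq2). Without P28 control 3, the low-Hdac1 control, the P28 log2 fold changes were 2.94 for Phf19 (adjusted p = 8.39e-05), 1.09 for Ezh2 (adjusted p = 0.00171), 0.65 for Eed (adjusted p = 0.0182) and -1.04 for Ezh1 (adjusted p = 0.00125), and Suz12 was called as well. With any single P28 library left out, Phf19 (2.94 to 3.22), Ezh2 (1.09 to 1.27) and Ezh1 (-1.09 to -0.97) still passed the test. At P20 the largest values beside Phf19 were those of Phf1 (0.68, SE 0.248, adjusted p = 0.181) and Mtf2 (0.56, SE 0.231, adjusted p = 0.224). P20 control 1 differed from the other P20 controls in both genes, at 522.3 against 254.3 and 269.6 for Phf1 and at 391.0 against 194.8 and 266.7 for Mtf2. Without it, both passed the test, at 1.01 (adjusted p = 0.0129) and 0.82 (adjusted p = 0.0278), but in that setting 1530 of all 13831 genes were called in place of 60.

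The difference between the anagen and the telogen effect of the mutation was tested directly over the 24 libraries. It passed the test for 6 of the 8 genes, 4 in the positive and 2 in the negative direction, where 30.2% of 14243 genes passed (16.1% positive and 14.1% negative). Phf19 had the largest value, 2.59 (log2, SE 0.484, adjusted p = 0.000562), followed by Ezh2 at 1.06 (SE 0.330, adjusted p = 0.0197). Eed at 0.51 (SE 0.160, adjusted p = 0.0208) and Suz12 at 0.44 (SE 0.154, adjusted p = 0.0353) were also positive. Ezh1 at -0.73 (SE 0.163, adjusted p = 0.00216) and Phf1 at -0.57 (SE 0.188, adjusted p = 0.0278) were negative. For Phf1 the telogen ages differed in direction, with log2 fold changes of 0.68 at P20 and -0.12 at P60. Its anagen values were -0.32 at P24 and -0.25 at P28, so that P60 was nearer to anagen than P20 was. Jarid2 (-0.36, SE 0.168, adjusted p = 0.114) and Mtf2 (0.19, SE 0.238, adjusted p = 0.591) did not pass. The values of Suz12 and Phf1 were the less stable ones, with adjusted p above 0.05 after leaving out any of 11 and 5 single libraries, at 0.0504 to 0.0685 and 0.0514 to 0.0570.

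Within the controls, 2 of the 8 genes differed between anagen and telogen, both lower in anagen, where 45.6% of 14066 genes differed and 21.9% were lower. Eed had a log2 difference of -0.39 (SE 0.103, adjusted p = 0.0102), with 180.1 to 286.2 normalized reads in the 6 anagen controls and 289.5 to 326.8 in the 6 telogen controls. Ezh1 was lower in anagen as well when the 2 ages of each stage were averaged (-0.37, SE 0.111, adjusted p = 0.0194), with overlapping values. Its control means were 671.7 at P24 and 928.3 at P28, against 792.1 at P20 and 1312 at P60. The mean at P28 was thus above that at P20, and the highest levels were at P60. The value of Ezh2, -0.57 (SE 0.239, adjusted p = 0.0726), did not pass the test but did without P24 control 3 (-0.73, adjusted p = 0.0225) or P60 control 1 (-0.76, adjusted p = 0.0129).

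Between P24 and P28 no member passed the test in either genotype, where 1.46% of 13966 genes did in controls and 2.67% of 14032 in dM1/2. These shares varied with the libraries used, since the 204 genes called in controls became 0 to 67 when any one library was left out. The 375 in dM1/2 became 57 to 446. Fewer libraries also give less power, which cannot be told apart here from dependence on single libraries. In controls, Ezh2 differed by -1.03 (SE 0.290, adjusted p = 0.133) and Phf19 by -1.27 (SE 0.333, adjusted p = 0.114) on the log2 scale. Each was lower in every P28 control than in any P24 control. DESeq2 called both, with adjusted p of 0.0236 and 0.0120. Ezh1 differed by 0.48 (SE 0.154, adjusted p = 0.173) and Jarid2 by -0.59 (SE 0.206, adjusted p = 0.202), also without overlap. In dM1/2 the corresponding log2 differences were -0.42 for Ezh2 (SE 0.124, adjusted p = 0.127) and -0.39 for Phf19 (SE 0.137, adjusted p = 0.201). The genotype effect at P28 minus that at P24 did not pass the test for any of the 8 genes, where 0.707% of 14139 genes passed, and was 0.89 for Phf19 (SE 0.355, adjusted p = 0.333), 0.61 for Ezh2 (SE 0.327, adjusted p = 0.510) and 0.55 for Jarid2 (SE 0.274, adjusted p = 0.473).

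Levels can be compared between the genes per exon length. In P28 controls Suz12 stood at 159 ± 35.8, Phf1 at 143 ± 14.9 and Ezh1 at 125 ± 7.18 normalized reads per kb (SD, n = 3), which overlapped between neighbours. Jarid2 followed at 100 ± 10.9, then Mtf2 at 56.5 ± 8.3 and Eed at 54.5 ± 6.49, which overlapped, then Ezh2 at 36.1 ± 4.78 and Phf19 at 8.50 ± 1.71. In P28 dM1/2 Suz12 was again highest at 193 ± 9.34, while Ezh2 at 82.9 ± 10.2 was above Ezh1 at 61.3 ± 5.08 and Phf19 at 72.6 ± 7.88 was close to Mtf2 at 77.1 ± 16.6.

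Among 7 further PRC2 subunits, Epop (ENSMUSG00000043439, listed under E130012A19Rik), which bridges Polycomb-like complexes to elongins, had a larger fold than any of the 8 at P24 and at P28. It was 50.89, 51.88 and 62.57 normalized reads in P28 controls and 1271, 1215 and 1075 in P28 dM1/2, a rise of 4.41 (log2, SE 0.153, adjusted p = 0.000132) or 21.2-fold. Without P28 control 3 its log2 fold change was 4.50 (adjusted p = 1.94e-05). At P24 it was 76.22, 150.6 and 187.0 in the controls and 800.7, 813.1 and 1307 in dM1/2 (2.87, SE 0.347, adjusted p = 0.00209). Epop also rose at P20, from 190.2, 170.4 and 192.2 to 432.0, 336.4 and 349.6 (1.01, SE 0.160, adjusted p = 0.0454), a call lost without any of 5 of the 6 libraries in turn (adjusted p 0.106 to 0.159). At P60 the genotypes overlapped. The genotype effect on Epop was larger in anagen than in telogen by 3.04 (log2, SE 0.495, adjusted p = 0.000183).

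Of the other listed subunits, Aebp2 was called at P24 and Rbbp4 at P28, and the median log2 fold change of the 6 tested was 0.13 at both ages. Aebp2, which pairs with Jarid2, rose at P24 from 670.2 ± 94.5 to 985.0 ± 101 normalized reads (0.56 on the log2 scale, SE 0.145, adjusted p = 0.0271) and had a log2 fold change of 0.24 at P28 (SE 0.138, adjusted p = 0.221). The P24 call of Aebp2 was lost without any of 5 of the 6 libraries in turn, with adjusted p of 0.0540 to 0.0892. Rbbp4, a histone chaperone shared with deacetylase complexes, rose at P28 from 2104 ± 182 to 2937 ± 340 (0.48, SE 0.136, adjusted p = 0.0328), and this call was lost without any of 4 of the 6 libraries (adjusted p 0.0646 to 0.125). Its paralogue Rbbp7 averaged 2045 and 2065 normalized reads at P28. Lcor and Lcorl, whose loci encode the PALI subunits, averaged 308.4 and 684.0 in P28 controls and 214.6 and 611.8 in P28 dM1/2, and neither passed the test (log2 fold changes -0.54, SE 0.185, adjusted p = 0.0591, and -0.16, SE 0.199, adjusted p = 0.589). Ezhip, an inhibitor of the complex, had at most a single read in any anagen library and was not tested.

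**Figure D4:**
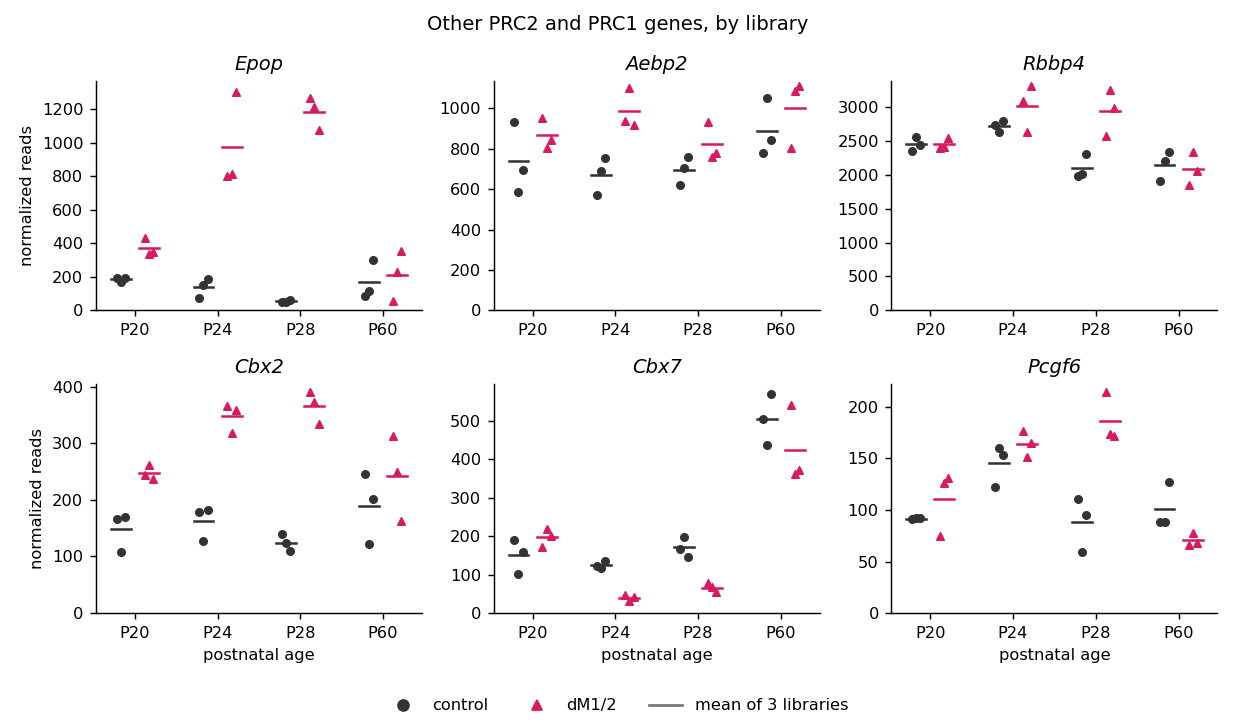
Normalized reads (linear axes from 0) of the PRC2 genes Epop, Aebp2 and Rbbp4 and the PRC1 genes Cbx2, Cbx7 and Pcgf6 in each library by age, with controls as circles, dM1/2 as triangles and bars at the mean of 3 libraries. Epop and Cbx2 of dM1/2 lie above and Cbx7 of dM1/2 below all controls at P24 and P28.

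PRC1, the partner complex that recognizes the PRC2 mark, was represented by 23 genes. Of these, 5 rose and 3 fell at P24, and 6 rose and 3 fell at P28, with median log2 fold changes of 0.16 and 0.08. Over all genes tested, 14.8% rose and 11.8% fell at P24, and 20.0% rose and 15.6% fell at P28. Its mark-reading subunits moved in opposite directions. Cbx2 rose from 123.8 ± 15.4 to 365.9 ± 28.7 normalized reads at P28 (1.56, SE 0.160, adjusted p = 0.000836) and by 1.11 at P24 (SE 0.182, adjusted p = 0.00531). Cbx7 fell from 171.4 ± 26.2 to 66.34 ± 11.1 at P28 (-1.36, SE 0.217, adjusted p = 0.00393) and also at P24 (-1.64, SE 0.228, adjusted p = 0.00308). Pcgf6 rose at P28 (1.11, SE 0.270, adjusted p = 0.0187) and Phc3 fell (-0.62, SE 0.174, adjusted p = 0.0310), and both calls were lost without some single libraries, for example P28 dM1/2 3 (adjusted p 0.0540 and 0.107).

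Of 6 H3K27 demethylase and deubiquitinase genes, which counter the Polycomb marks, none changed at P24 and 1 fell at P28, with median log2 fold changes of -0.16 and -0.22, where 15.6% of all genes fell at P28. It was Asxl3 (-0.97, SE 0.302, adjusted p = 0.0452), a call lost without any of 5 single libraries. At P28 the demethylases Kdm6a and Kdm6b had log2 fold changes of -0.25 (SE 0.164, adjusted p = 0.279) and -0.20 (SE 0.194, adjusted p = 0.465). Asxl1 (0.15, SE 0.178, adjusted p = 0.556) and Asxl2 (-0.27, SE 0.147, adjusted p = 0.205) did not pass either, and Bap1 averaged 1184 ± 220 and 1178 ± 77.7 normalized reads. Among 6 trithorax genes, whose products oppose Polycomb repression, 1 rose at P24 and 1 fell at P28 (medians -0.02 and -0.38), where 14.8% of all genes rose at P24 and 15.6% fell at P28. The former was Men1 (0.47, SE 0.113, adjusted p = 0.0209), named after its values were seen. The latter was Ash1l (-0.50, SE 0.133, adjusted p = 0.0260), a call lost without any of 3 single libraries (adjusted p 0.0723 to 0.105).

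Developmental and cell-cycle genes known as PRC2 targets in other cells were mostly low, since 7 of 24 passed the filter at P24 and 9 at P28. Those without a read in any library of a group numbered 5 in controls and 2 in dM1/2 at P24, and 6 and 3 at P28. At P28, Nkx6-1 was at most 1.92 normalized reads in controls and 42.22, 57.42 and 31.72 in dM1/2 (adjusted p = 0.00113), and Lhx2 was 8.41 ± 6.62 and 55.87 ± 9.01 (adjusted p = 0.00691). Tbx5 fell from 169.3 ± 20.3 to 55.89 ± 26.8 (-1.69, SE 0.364, adjusted p = 0.0120). Cdkn2a, a classical target that encodes cell-cycle inhibitors and is named here after its values were seen, was 3.92, 6.40 and 2.28 normalized reads in P28 controls and 35.39, 26.57 and 22.88 in dM1/2 (adjusted p = 0.00659). Nkx6-1, Lhx2 and Cdkn2a averaged under 10 normalized reads in the controls and passed the filter only through dM1/2, so that their direction was set by the filter, and their values are a description.

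In anagen dM1/2, several members changed where proliferation markers rose. All 12 markers rose at P24 and at P28, with median log2 fold changes of 1.69 and 3.15, led at P28 by the mitotic kinase Cdk1 (4.33, SE 0.394, adjusted p = 0.000612) and cyclin Ccnb1 (3.77, SE 0.325, adjusted p = 0.000499). Their summed level was 14000 to 19110 normalized reads in P24 dM1/2 and 10750 to 13230 in P28 dM1/2, against 3864 to 8519 and 1519 to 1957 in the controls, and 1727 to 6401 in the telogen libraries. Ezh1 was at most 497.5 normalized reads in the 6 anagen dM1/2 libraries, those with the highest sums, and at least 545.8 in the other libraries. Phf19 was at least 331.6 in the former and at most 159.6 in the latter. Since the former are the anagen dM1/2 group itself, this split repeats the genotype difference. Among the other libraries, P20 control 2 had a marker sum of 6401 with Phf19 at 73.04 and Ezh1 at 830.5. P24 control 3 had a sum of 8519 with Phf19 at 159.6 and Ezh1 at 545.8. Ezh2 was also high at low marker sums, since P20 control 1 held 704.4 with a marker sum of 2057 and P60 control 3 held 617.9 with 1932. Among 8 E2F genes, 4 rose at P24 and 4 at P28 (medians 0.71 and 0.72; 14.8% and 20.0% of all genes), with E2f8 (3.12, SE 0.417, adjusted p = 0.00200) and E2f7 (0.91, SE 0.208, adjusted p = 0.0151, lost without any single P28 dM1/2 library at 0.0507 to 0.0585) the highest of them at P28. DP markers moved as well, with 1 of 14 higher and 6 lower at P24 and 2 higher and 6 lower at P28, where 11.8% and 15.6% of all genes were lower. Their sum was 168500 to 206900 normalized reads in P24 dM1/2 and 134600 to 154000 in P28 dM1/2, below the controls at 311300 to 369600 and 172300 to 459500. The part of dividing cells and of DP marker loss in the PRC2 values was not tested.

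**Figure D5:**
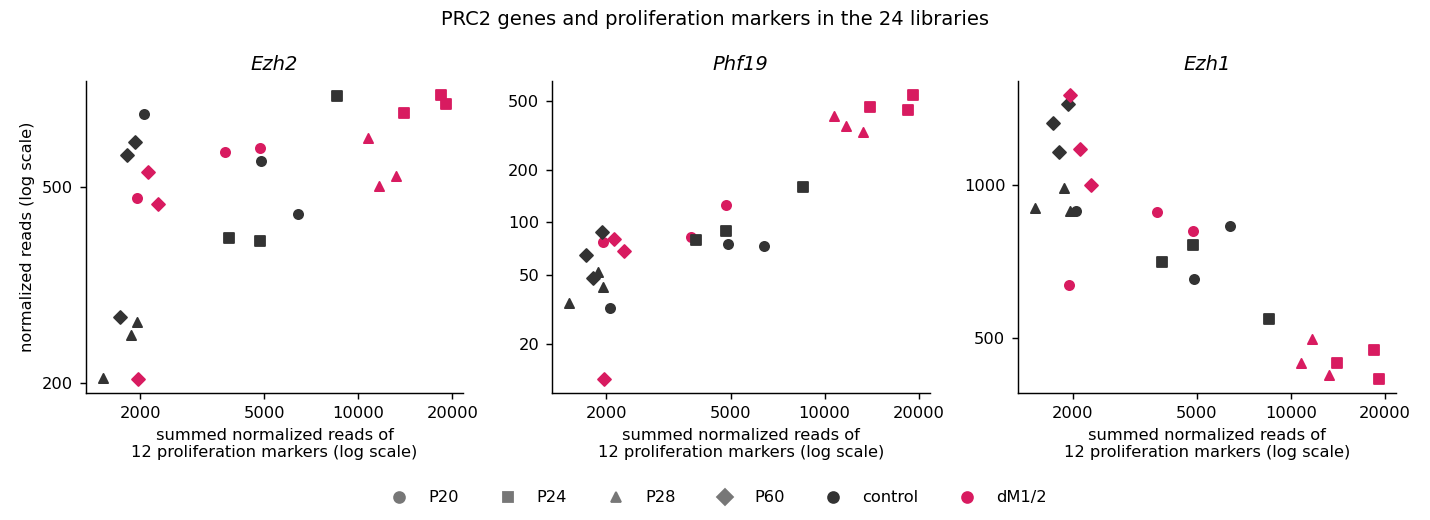
Normalized reads of Ezh2, Phf19 and Ezh1 (vertical, log scale) against the summed normalized reads of 12 proliferation markers (horizontal, log scale) in the 24 libraries, with shapes for age, black for controls and magenta for dM1/2. The 6 anagen dM1/2 libraries lie at 10750 or more on the horizontal axis, with Phf19 at 331.6 or more and Ezh1 at 497.5 or less, while Ezh2 at low marker sums spreads from 204.5 to 704.4.

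Genes whose values tracked a member most closely over the 24 libraries were searched among 13399 genes by the root-mean-square difference of centred log2 values. For Phf19 they were Ccne1 (0.471), Rcor2 (0.501) and Cenpi (0.503), where the spread of Phf19 itself was 1.36. For Ezh2 they were Tle3 (0.272), Rbm12 (0.290) and Phtf2 (0.313), against its own spread of 0.578. The nearest gene was Celf1 for Suz12 (0.149, own spread 0.314), Kat2a for Eed (0.165, own spread 0.277) and Ewsr1 for Jarid2 (0.158, own spread 0.257). It was Cpsf6 for Mtf2 (0.208, own spread 0.363) and Tmem245 for Phf1 (0.230, own spread 0.405). These are descriptions over libraries that share age and genotype. Predicted gene models (Gm and Rik names) and the other members were left out of the search. Epop, listed under a Rik name, could therefore not appear.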

How the data were processed

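RNA of sorted DP cells was measured in 24 libraries (3 control and 3 dM1/2 mice at each of 4 ages), grouped by the age and genotype in their labels. Per the methods, ribosomal RNA was removed, directional libraries were made, and single-end reads of 50 bases were trimmed with Trimmomatic, aligned to mm10 with TopHat2, counted with HTSeq and normalized with DESeq2. The deposited signal is a count divided by the size factor of its library. Division by the step of a single read gave whole reads for 100% of values (tolerance 0.01 read), and the count tests used these reads. The authors also deposited log2 fold changes and p-values of their own comparisons, which were not used.

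Log2(normalized reads + 1) was tested two-sided in limma 3.58.1, with its trend option, for genes averaging 10 or more normalized reads across the compared libraries, with Benjamini-Hochberg adjustment over all genes tested and a threshold of 0.05. Folds are on this scale and understate low genes. It was tried on simulated counts with known changes. "Called" and "passed the test" mean an adjusted p under 0.05. Between groups of ages, means of P24 and P28 were set against means of P20 and P60. Alternatives were edgeR 4.0.16 and DESeq2 1.42.0 on the recovered reads, other pseudocounts and filters, log2-CPM, a single fit, a replicate block and leaving out each library. Gene models were GENCODE vM21 (GRCm38) and promoters RefSeq.

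The members and lists were chosen with earlier results of these data known. Named from the lists were every listed PRC2 subunit, demethylase and deubiquitinase gene and, elsewhere, up to 2 largest rises and falls past the threshold at P28, and for likeness the 3 nearest genes or the nearest. The likeness result of Ezh1 is not reported here.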

Additional observations from a re-analysis of the deposited data

Results flagged for a closer look

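The genotype effect differed between anagen and telogen, by a limma test of the difference itself over 24 libraries, for 6 of the 8 PRC2 genes, where 30.2% of all genes tested differed. On the log2 scale the difference was 2.59 for Phf19, 1.06 for Ezh2, 0.51 for Eed and 0.44 for Suz12, and it was -0.73 for Ezh1 and -0.57 for Phf1. The telogen effects behind the Phf1 value differed in direction, at 0.68 at P20 and -0.12 at P60. Stage, sex and depth differ together between anagen and telogen and cannot be told apart here.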

How the results depend on the processing

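The number of PRC2 genes called under the alternatives stayed within 1.5 times its value in the report for the genotype comparisons at P24, P28 and P60 and for the interactions, with 2 to 4 genes at P24 and 3 to 5 at P28 when single libraries were left out. At P20 it was 0 to 2 with single libraries left out, with 2 called without P20 control 1, where 1530 genes were called over all genes, against 60 with all libraries and 0 to 11 without any other library. For P24 to P28 in controls, DESeq2 called 2 (Ezh2 and Phf19) and a single fit over all 24 libraries called 1 (Jarid2), and the cause was not tested. The log2 ratio of Ezh2 to Ezh1 in anagen was between 1.56 and 1.93 with single libraries left out. In telogen it was between -0.29 and 0.19 and turned positive without P60 control 2 (0.03) and without P60 dM1/2 1 (0.19). Direction also turned without a single library for values that never passed the test, Ezh2 at P60 (between -0.69 and 0.11) and Phf19 at P60 (between -1.1 and 0.19), both positive without P60 dM1/2 1, and Asxl1 at P28 (between -0.04 and 0.28, negative without P28 dM1/2 1). The labels do not say whether replicate numbers pair the samples. Deviations of same-numbered control and dM1/2 libraries from their group means correlated at 0.231, 0.082 and 0.116 at P20. These correlations were 0.344, 0.024 and 0.171 at P60, -0.179, 0.043 and -0.401 at P24, and -0.152, 0.027 and -0.229 at P28. Pairing at P20 and P60 is therefore not excluded. With a replicate block, 2 genes were called at P24, where Ezh1 was lost (adjusted p = 0.0521), and 4 at P28, Aebp2 was lost at P24 (0.0630) and Rbbp4 (0.0733), Phc3 (0.0525), Asxl3 (0.0816) and Ash1l (0.0814) at P28, and the ratio in anagen kept 1.70 (exact permutation of pairs, p = 0.0312, the smallest possible). Over all genes, the block called 439 at P20, 2366 at P24 and 6 at P60, against 60, 3735 and 0 without it. DESeq2 called 668 at P20 and 26 at P60, and a single fit 23 and 19. With single libraries left out, 2057 to 4012 genes were called at P24 and 3043 to 5788 at P28. Between P24 and P28, 204 genes were called in controls, against 1494 with DESeq2, 1313 in a single fit and 27 with the block, and 375 in dM1/2, against 1127 with DESeq2 and 78 in a single fit. With single libraries left out these were 0 to 67 in controls and 57 to 446 in dM1/2. For the difference of the genotype effects at P28 and P24, 100 genes were called, against 595 with DESeq2, 0 with the block and 8 to 167 with single libraries left out. Depth limits Phf19 in telogen most, where its lowest library held 5 reads.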
